A study of Homo sapiens with 8 samples.

Results

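The genes described here encode the subunits of the mitochondrial respiratory chain and of ATP synthase that are made from nuclear DNA. A gene was a member where its symbol began with NDUFA, NDUFB, NDUFC, NDUFS or NDUFV and a digit, was SDHA to SDHD, or began with UQCR, COX4 to COX8 or ATP5. That rule took 87 of the 18787 gene symbols, namely 38 of complex I, 4 of complex II, 9 of complex III, 17 of complex IV and 19 of complex V. The rule used symbols only and no measured value. Of the 87, 81 reached the minimum for testing (a value of at least 10 in at least 2 libraries), among 14282 genes tested in all.

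RNA was sequenced from T98 and U87, established human glioblastoma cell lines grown in DMEM with serum, at 72 h after transfection with Lipofectamine RNAiMAX. Within each line, 2 libraries came from cells given a control siRNA and 2 from cells given LKB1 siRNA, which targets the product of the gene STK11, and so there were 4 groups and 8 libraries. Neither the siRNA sequences nor whether the duplicates were separate transfections is stated in the labels. Every p-value therefore reflects the scatter of these libraries alone, and that scatter may be technical. With lines rather than tissue, each line stands for 1 tumour.

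The respiratory chain passes electrons from NADH through complex I, and from succinate through complex II, to ubiquinone, then through complex III and cytochrome c to complex IV, which reduces oxygen. Complexes I, III and IV pump protons across the inner mitochondrial membrane, and complex V uses the gradient to make ATP. Complex II is wholly nuclear-encoded, and the others combine nuclear-encoded subunits with subunits encoded by mitochondrial DNA, which are not analysed here. LKB1 activates AMPK, a kinase that senses low cellular energy and is known to promote mitochondrial biogenesis. Glioblastoma cells are known for rapid glycolysis while many keep a working respiratory chain.

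Many nuclear genes of the chain are known to carry sites for the nuclear respiratory factor NRF-1 in their promoters. RefSeq promoter windows (GRCh38.p14, 250 bases before to 50 bases after each start) were listed for 69 of the 87 members, matched by symbol. The NRF-1 letters GCGCATGCG, searched on both strands, stood in a window of 11 of those 69 members (15.9%), and in 2.34% of all 27305 genes with a window. The stretches shown belong to NDUFA5, NDUFA8 and ATP5C1, on which the knockdown results turn, and to SDHD, which was among the members that differed most between the lines. The match is in capitals and each stretch is 100 bases in the direction of transcription.
NDUFA5 (chr7:123557932-123558031, minus strand): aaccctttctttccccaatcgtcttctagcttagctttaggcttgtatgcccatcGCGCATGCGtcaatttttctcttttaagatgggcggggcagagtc
NDUFA8 (chr9:122159750-122159849, minus strand): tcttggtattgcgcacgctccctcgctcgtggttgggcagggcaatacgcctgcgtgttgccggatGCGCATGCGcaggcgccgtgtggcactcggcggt
ATP5C1 (chr10:7788100-7788199, plus strand): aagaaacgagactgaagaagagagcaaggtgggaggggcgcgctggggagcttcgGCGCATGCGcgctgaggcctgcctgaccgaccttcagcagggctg
SDHD (chr11:112086708-112086807, plus strand): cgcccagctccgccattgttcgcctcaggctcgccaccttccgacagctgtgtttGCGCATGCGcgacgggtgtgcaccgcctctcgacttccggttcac

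The match in NDUFA8 overlapped the start region, from 4 bases before the start site (position -4), and those in ATP5C1, SDHD and NDUFA5 began at -22, -110 and -158, the last in 1 of 3 windows listed for that gene. The other 7 members with the letters were NDUFB4, NDUFS6, NDUFS7, COX6A1, ATP5G2, ATP5I and ATP5J. By complex, the 11 were 5 of 33 members with a window in complex I, 1 of 3 in II, 0 of 7 in III, 1 of 14 in IV and 4 of 12 in V. The ETS letters CCGGAAG, which GABP binds, stood in windows of 20 members (29%, against 12.16% of all genes). The YY1 letters AAGATGGCG stood in 9 (13%, against 2.14%). The TATA letters TATAAA stood in 7 (10.1%, against 13.99%). All genes here means every gene with a window, without a filter on gene type or on level in these libraries. A match is a description of the sequence and not a bound site.

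The libraries held 25234334 to 38031734 recovered reads, with a median of 2731.5 reads per member and library and a lowest value of 8. According to the deposited column names, every group was sequenced once on lane 2 and once on a further lane (4 for T98, 5 for U87). Lane differences were shared within a line, with a correlation across genes of 0.72 in T98 and 0.81 in U87. Lane cannot be told apart here from another pairing of the libraries, such as a shared transfection or library preparation, which the labels do not give. Results are therefore given from a fit without a lane term and from one with a lane term for each line, called the lane-term fit. Of the glial markers, VIM was at 34020 to 292296 and SLC1A3 at 260 to 1541 in all 8 libraries, whereas S100B, AQP4 and SOX2 did not exceed 3.5. The blood cell markers CD3E and AIF1 did not exceed 1.9.

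STK11 checked the labels. In T98 it was at 1999 and 2041 in the control libraries (lanes 2 and 4) and at 340 and 588 in the LKB1 siRNA libraries. In U87 it was at 2445 and 2041 with control siRNA (lanes 2 and 5) and at 361 and 385 with LKB1 siRNA. All 4 LKB1 siRNA libraries lay below all 4 control libraries, and the mean of both effects was −2.38 on the log2 scale (SE 0.20, limma adjusted p = 0.00815). By line, the adjusted p was 0.0824 in T98 and 0.0466 in U87 without a lane term, and 0.00254 and 0.00195 with it.

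Levels were compared between genes only as the value per kilobase of transcript. In the T98 control libraries, the median per-kilobase level was 1864 over the 38 genes of complex I, 2628 over the 4 of complex II, 3429 over the 9 of complex III, 5050 over the 11 tested of complex IV and 3752 over the 19 of complex V. The U87 control libraries gave per-kilobase medians of 1988, 2004, 3222, 6048 and 4245 in the same order. Complex IV had the highest per-kilobase median in both lines, and complexes I and II the lowest.

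**Figure D1:**
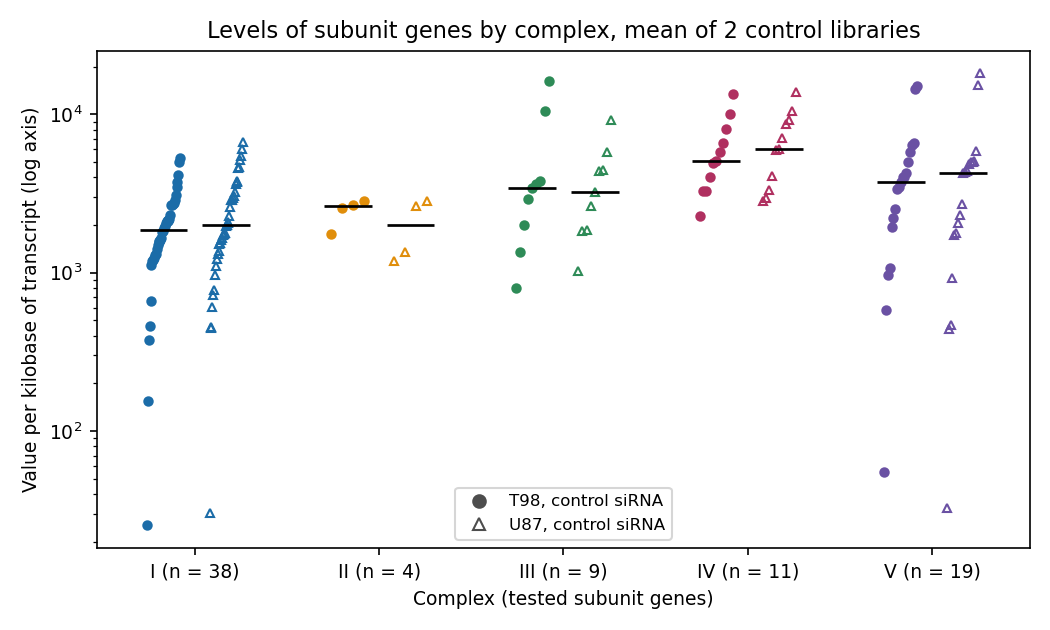
Value per kilobase of transcript (log axis) of each tested subunit gene, as the mean of the 2 control libraries of T98 (filled circles) and of U87 (open triangles), by complex, with a bar at the median of the genes. The medians run from 1864 (complex I) to 5050 (complex IV) in T98. The lowest points of complexes I and V are NDUFA4L2 and ATP5S, both placed there by symbol.

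Within a complex the levels were far from equal. In complex I, NDUFS5 had the highest per-kilobase level in T98 control cells (5300) and NDUFB2 in U87 control cells (6674). NDUFA4L2, a relative of NDUFA4 known to be induced by hypoxia, was lowest in both (25.4 and 30.5), and its values were 11.4 to 45.3 in the 8 libraries. UQCRH, the hinge protein of complex III that helps cytochrome c dock, was highest in complex III (16240 in T98 and 9182 in U87 control cells) and UQCRB lowest (795.0 and 1022). COX7C led complex IV (13380 and 13890), and COX6C was lowest (2272 and 2844). ATP5E, the epsilon subunit of the ATP synthase head, led complex V in both control groups (15020 and 18130). SDHD, a membrane anchor of complex II, led its complex in T98 control cells (2830) and SDHA, the flavoprotein that oxidises succinate, in U87 control cells (2822).

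The isoforms of complex IV known from other tissues were the members not tested. COX4I2, COX6A2, COX6B2, COX7A1, COX7B2 and COX8C had values of 0.0 to 6.1 in the 8 libraries, whereas their widely expressed partners COX4I1, COX6A1, COX6B1, COX7A2, COX7B and COX8A were at 1699 to 10033. COX4I1, for example, was at 6231 and 7213 in T98 control libraries, at 10033 and 7763 after LKB1 siRNA, at 7177 and 7119 in U87 control libraries and at 6975 and 8258 after LKB1 siRNA. All 3 genes for the c subunit of the ATP synthase ring were present, with mean per-kilobase levels of 3124 (ATP5G1), 4126 (ATP5G2) and 3525 (ATP5G3).

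Some members need care. UQCRHL is a near copy of UQCRH and held 61.0% to 66.7% of its value in each library, and ATP5L2 held 12.6% to 18.4% of ATP5L, so their reads may be split between copies. NDUFC2-KCTD14 and ATP5J2-PTCD1 are readthrough transcripts that share exons with NDUFC2 (75.0% to 98.8% of its value) and ATP5J2 (72.8% to 103%). ATP5S and ATP5SL match the symbol rule but are not subunits of ATP synthase, and NDUFA4 is counted under complex I by symbol although it is now regarded as a subunit of complex IV. Its relative NDUFA4L2 is likewise counted there by symbol, and RefSeq names them COXFA4 and COXFA4L2. Without those 6 copies, readthroughs and misnamed ATP5 genes, 75 tested members remained, NDUFA4 and NDUFA4L2 among them.

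The first question was which subunit genes differed after LKB1 siRNA. NDUFA5, an accessory subunit of the peripheral arm of complex I, was higher after LKB1 siRNA in both lines, by 1.03 and 0.99 (log2) on lanes 2 and 4 in T98 and by 0.72 and 0.98 on lanes 2 and 5 in U87. NDUFA8, another accessory subunit of complex I, was lower in both lines, and so was ATP5C1, the gamma subunit that forms the rotating shaft of ATP synthase. COX7A2L, which is known to help complexes III and IV assemble into supercomplexes, was lower in U87, and COX7B, a small structural subunit of complex IV, was higher in T98. These calls came from the lane-term fit. The fit without a lane term called 0 members in either line, against 0.028% of all genes in T98 and 0.056% in U87. At an unadjusted p below 0.05 it had 3 members in each line, beside 1502 of the 14282 genes in T98 and 1268 in U87. Without a lane term, edgeR called 0 members in T98 (3 genes) and 0 in U87 (0 genes). DESeq2 called 2 members in T98 (350 genes) and 1 in U87 (491 genes).

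NDUFA5 (hg19 chr7:123181083-123197958) was at 533 and 629 in the T98 control libraries on lanes 2 and 4, and at 1089 and 1251 in the LKB1 siRNA libraries. In U87 it was at 1158 and 1078 in the control libraries on lanes 2 and 5, and at 1909 and 2129 after LKB1 siRNA. Within each line, both LKB1 siRNA libraries exceeded both control libraries. The fold change was 2.01 in T98 (log2 1.01, SE 0.13, lane-term adjusted p = 0.00705) and 1.80 in U87 (log2 0.85, SE 0.13, adjusted p = 0.00876), on the scale of log2(value + 1), which holds for all fold changes here. Without a lane term the adjusted p was 0.158 and 0.147, and over 28 settings it ran from 2.73e-06 to 0.899 in T98 and from 3.68e-05 to 0.655 in U87. Over the mean of both lines NDUFA5 rose by 0.93 (SE 0.14, adjusted p = 0.0284), and with the lane term the adjusted p was 0.00118. Leaving out any 1 of the 8 libraries ended that call in the fit without a lane term (adjusted p 0.0624 to 0.138), while 6 of 8 such fits with a lane term kept it, and over its 28 settings the adjusted p ran from 2.5e-11 to 0.138. The 2 lane-term fits that lost it left out a lane 2 library of U87: control (adjusted p = 0.0987) or LKB1 siRNA (0.0971).

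NDUFA8 (hg19 chr9:124906338-124922098) was at 1487 and 1603 in the T98 control libraries and at 642 and 835 after LKB1 siRNA. In U87 it was at 3531 and 2589 in the control libraries and at 1982 and 1926 after LKB1 siRNA. The groups did not overlap in either line, and U87 control cells held more NDUFA8 than T98 control cells. In T98 it was 2.11-fold lower (log2 −1.07, SE 0.15, lane-term adjusted p = 0.00782) and in U87 1.55-fold lower (log2 −0.63, SE 0.15, adjusted p = 0.0365), with adjusted p of 7.59e-07 to 0.867 and of 0.0123 to 0.971 over 28 settings. The mean effect was −0.85 (SE 0.16, adjusted p = 0.0470 without and 0.00212 with a lane term). Over its 28 settings the adjusted p of the mean effect ran from 8.91e-09 to 0.175, and 16 of them called it. Leaving out any 1 library ended the call without a lane term (0.0602 to 0.175). The difference between the lines was −0.45 and did not pass in either fit (SE 0.32, adjusted p = 0.9999 without a lane term; SE 0.21, adjusted p = 0.380 with it). It was −0.38 for the lane 2 pairs and −0.51 for the others.

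ATP5C1 (hg19 chr10:7830093-7849762) was at 4955 and 4292 in T98 control libraries and 3526 and 3150 after LKB1 siRNA. In U87 it was at 7048 and 4126 in control libraries and 4248 and 2696 after LKB1 siRNA. The U87 groups overlapped across lanes, since the lane 5 control library lay below the lane 2 LKB1 siRNA library, but on each lane the LKB1 siRNA library was the lower. The differences were −0.47 in T98 (SE 0.11, lane-term adjusted p = 0.0343) and −0.67 in U87 (SE 0.11, adjusted p = 0.0112), against adjusted p of 0.656 and 0.621 without a lane term. Over its 28 settings the adjusted p ran from 0.022 to 0.943 in T98 and from 0.00082 to 0.988 in U87.

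COX7A2L (hg19 chr2:42577645-42588356) was at 3849 and 3430 in T98 control libraries and 3273 and 2806 after LKB1 siRNA, and at 5344 and 3708 in U87 control libraries and 3189 and 2763 after LKB1 siRNA. The groups did not overlap in either line. Its difference was −0.58 in U87 (SE 0.13, lane-term adjusted p = 0.0269; 0.0103 to 0.971 over 28 settings) and −0.26 in T98 (adjusted p = 0.186 with a lane term). COX7B (hg19 chrX:77154961-77160881) was at 3050 and 2991 in T98 control libraries and 4976 and 3714 after LKB1 siRNA. Its difference in T98 was 0.51 (SE 0.13, lane-term adjusted p = 0.0434; 0.0125 to 0.928 over 28 settings), and in U87, where the groups overlapped, it was 0.20 (lane-term adjusted p = 0.384).

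**Figure D2:**
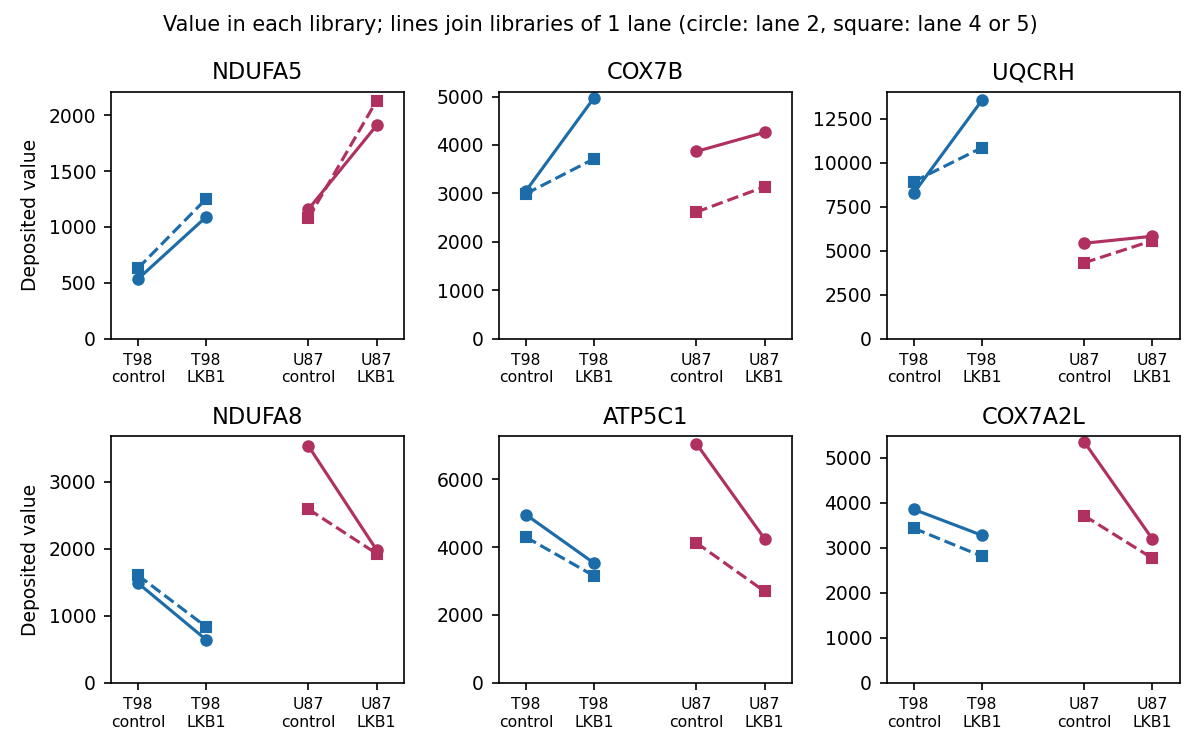
Deposited value of 6 subunit genes in each of the 8 libraries, from 0 on a linear axis, with lines joining the control and the LKB1 siRNA library of 1 line and lane (T98 in blue, U87 in red; circles and solid lines for lane 2, squares and dashed lines for lane 4 of T98 or lane 5 of U87). All 4 lines of NDUFA5 go up and all 4 of NDUFA8, ATP5C1 and COX7A2L go down.

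In the lane-term fit, 4 members passed in T98 (NDUFA5 and COX7B higher, NDUFA8 and ATP5C1 lower), against 15.8% of all genes tested (8.48% higher and 7.33% lower). In U87, 4 passed (NDUFA5 higher, ATP5C1, COX7A2L and NDUFA8 lower), against 11.2% of all genes (5.29% higher and 5.91% lower). NDUFA5, NDUFA8 and ATP5C1 passed in both lines in the same direction. The share of all genes that did so was not computed. These 3 members carry the NRF-1 letters shown above, and 1 of them rose while 2 fell. COX7B and COX7A2L, which passed in 1 line each, do not carry the letters in their listed windows. The other 8 members with these letters did not pass in either line. Leaving out 1 library at a time with the lane term, each of the 4 T98 calls passed in 2 of 8 fits, those without a lane 4 library of T98, and each of the 4 U87 calls in 4 of 8, those without a T98 library.

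Averaged over the lines, NDUFA5 and NDUFA8 passed without a lane term, against 1.86% of all genes, and 9 members passed with it, against 26.4% (13.2% in each direction). Of the 81 members, 61 had a mean effect above 0, beside 50.4% of all genes, and the median was 0.10. The lane-term fit added to them 4 higher and 3 lower members. In complex II, SDHB, the iron-sulphur subunit, was 0.31 higher (SE 0.09, adjusted p = 0.0467; 0.0111 to 0.818 over 28 settings). In complex III, UQCRH was 0.37 higher (SE 0.10, adjusted p = 0.0352; 0.00752 to 0.532) and its copy UQCRHL 0.35 higher (adjusted p = 0.0427). UQCRFS1, the Rieske iron-sulphur protein of complex III, was 0.37 lower (log2 −0.37, SE 0.08, adjusted p = 0.0174; 0.0117 to 0.679 over 28 settings). COX7B was 0.36 higher, COX7A2L was 0.42 lower (log2 −0.42) and ATP5C1 was 0.57 lower (log2 −0.57). By line, T98 and U87, the values were 0.47 and 0.14 for SDHB, 0.50 and 0.24 for UQCRH and −0.32 and −0.42 for UQCRFS1, none of which passed within a line. Within a complex, then, single subunits passed in opposite directions: NDUFA5 against NDUFA8 in complex I, UQCRH against UQCRFS1 in III, and COX7B against COX7A2L in IV. By complex, the counts with the lane term were 1 higher and 1 lower of 38 in I, 1 and 0 of 4 in II, 2 and 1 of 9 in III, 1 and 1 of 11 in IV, and 0 and 1 of 19 in V.

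NDUFA4L2 had the lowest difference of complex I in U87 (−0.64, SE 0.68, adjusted p = 0.969), with values of 32.8 and 40.1 in control libraries and 11.4 and 45.3 after LKB1 siRNA. Those groups overlapped, and the lowest value rests on 8 recovered reads.

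As a group, the members were shifted upward in T98 on lane 2 and not on lane 4. Over both lanes, 68 of the 81 had a positive difference in T98 (52.1% of all genes did), with a median of 0.20 beside 0.02 for all genes. On lane 2 the median was 0.39, with 74 of 81 above 0, and on lane 4 it was −0.01, with 40 of 81 above 0. The LKB1 siRNA libraries of T98 lay wholly above the control libraries for 28 members and wholly below for 5, against 20.5% of all genes in each direction. In U87 the median was 0.01 (−0.08 on lane 2, 0.09 on lane 5), 42 of 81 were above 0 (49.8% of all genes), and 7 members lay wholly above and 8 wholly below, against 17.6% and 20.2%. By complex, the lane 2 and lane 4 medians in T98 were 0.36 and −0.01 for complex I, 0.15 and −0.02 for II, 0.34 and −0.04 for III, 0.56 and 0.11 for IV and 0.36 and 0.03 for V.

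**Figure D3:**
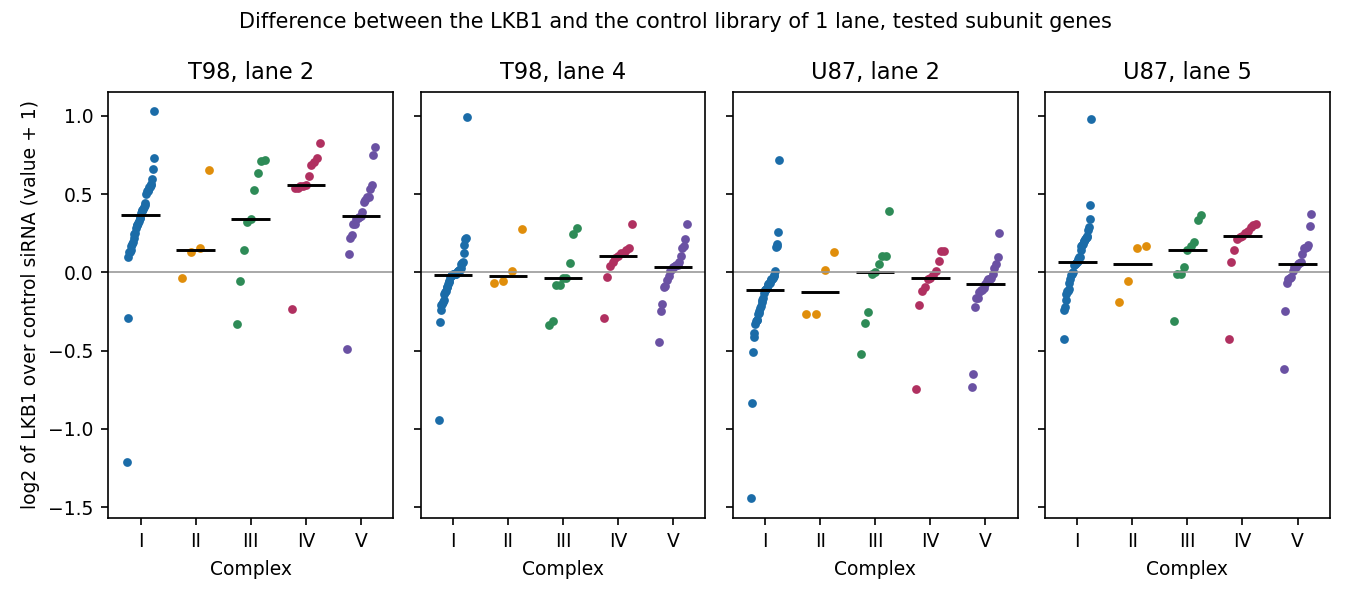
Difference on the log2(value + 1) scale between the LKB1 and the control siRNA library of the same line and lane for the 81 tested subunit genes, by complex, with a bar at the median of each complex. In T98 the medians lie at 0.15 to 0.56 on lane 2 and at −0.04 to 0.11 on lane 4, and NDUFA5 is the top point of complex I in all 4 panels.

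Transcript length moved with this shift. Members are short, with a median transcript length of 925 bases beside 3133 for all genes tested. On lane 2 of T98, the 42 tested members under 1000 bases had a median of 0.44, and 717 other genes under 1000 bases had 0.42. On lane 4 those medians were 0.01 and 0.04. From 1000 to under 2000 bases, the lane 2 medians were 0.34 for 24 members and 0.22 for 2744 other genes. From 2000 to under 4000 bases they were 0.24 for 12 members and 0.08 for 5653 other genes. At 4000 bases or more they were 0.25 for only 3 members and −0.19 for 5087 other genes. On lane 2 of T98, the members' median thus lay above that of other genes in each length bin, least so under 1000 bases. The part of length in the shift was not tested.

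**Figure D4:**
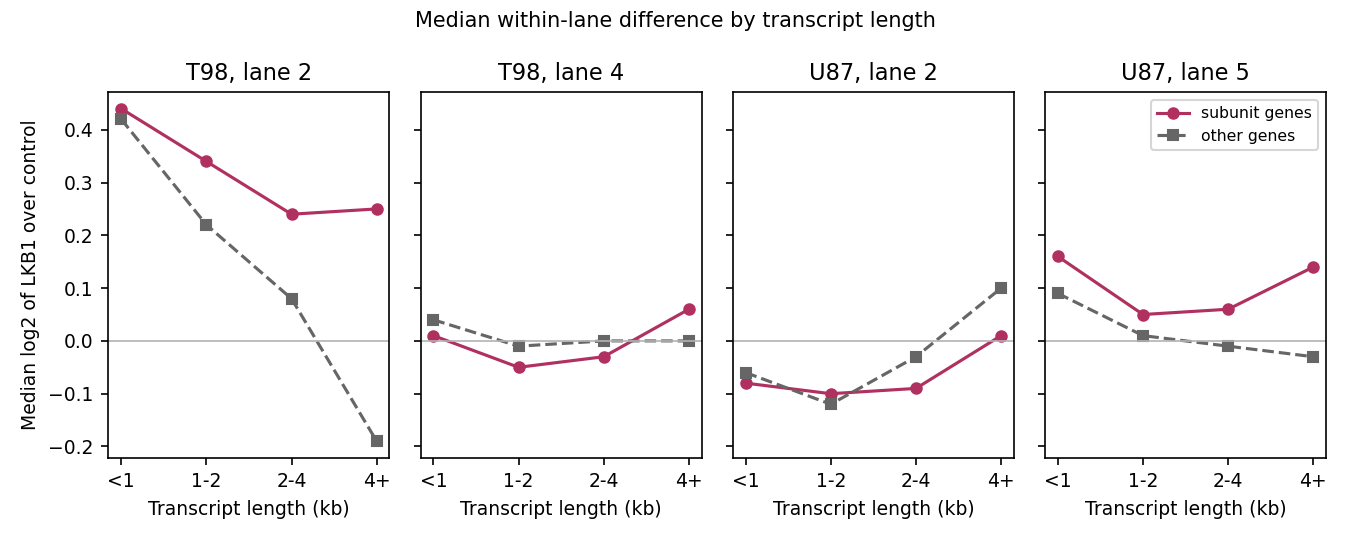
Median within-lane difference of LKB1 against control siRNA (log2 scale) by transcript length, for subunit genes (red circles) and all other tested genes (grey squares), in each line and lane. On lane 2 of T98 other genes fall from 0.42 under 1000 bases to −0.19 at 4000 bases or more, while on lane 4 they lie between −0.01 and 0.04; the last bin holds 3 subunit genes.

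The lanes differed for the members within groups too. Lane 2 exceeded the other lane by a median of 0.35 in the T98 LKB1 siRNA group, 0.21 in the U87 LKB1 siRNA group and 0.42 in the U87 control group, but by −0.02 in the T98 control group. Over all genes these medians were between −0.03 and 0.01. The difference between the knockdown effects, T98 minus U87, was above 0 for 75 of 81 members (53.7% of all genes), with a median of 0.20. For the lane 2 pairs that median was 0.51 and for the lane 4 and lane 5 pairs −0.07. No member passed the test of the difference in either limma fit (0% of all genes without and 0.476% with a lane term). Without a lane term, 0 members had an unadjusted p below 0.05, beside 367 of the 14282 genes. For this difference edgeR and DESeq2 called 0 members.

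Genes around the chain, taken from lists of known factors with 3 to 24 genes tested each, gave 1 call in the fit of the mean effect without a lane term. That fit called 1.86% of all genes. The gene called was IDH3A, the catalytic subunit of NAD-dependent isocitrate dehydrogenase, which was at 0.91 (SE 0.15, adjusted p = 0.0347). In the lane-term fit of that mean, 4 of 23 genes of the tricarboxylic acid cycle and pyruvate dehydrogenase rose and 2 fell. Among them SUCLG1 (succinyl-CoA ligase) was at 0.54 (adjusted p = 0.0054), PDHX (the protein that tethers E3 in pyruvate dehydrogenase) at −0.83 (0.00416) and DLD (the E3 enzyme itself) at −0.32 (0.0298), which was −0.51 in T98 and −0.13 in U87. The 6 calls of 23 stand beside 26.4% of all genes.

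Assembly factors build the complexes without staying in them. For complex I, 3 of 14 rose and 1 fell in the lane-term fit of the mean, including NDUFAF2 (0.54, adjusted p = 0.00786), TMEM186 (0.51, 0.0141) and COA1 (−0.76, 0.00244). For complexes II and III, 0 of 10 rose and 1 fell, LYRM7, which hands the Rieske protein to complex III (−0.77, adjusted p = 0.00635). For complex IV, 2 of 24 rose and 3 fell, including FASTKD2 (0.56, 0.00803), COX19 (0.49, 0.0286), COA5 (−0.46, 0.0151) and CMC1 (−0.45, 0.0251). For complex V, 0 of 3 passed. These assembly factor counts also stand beside 26.4% of all genes.

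Of 21 regulators of mitochondrial gene expression, 3 rose and 2 fell in the lane-term fit of the mean. PPARGC1B, a coactivator of mitochondrial genes, was at 0.92 (SE 0.21, adjusted p = 0.0186), and TFB1M, which methylates mitochondrial ribosomal RNA, at 0.56 (adjusted p = 0.014). GABPA, the DNA-binding subunit of GABP, was at −0.43 (adjusted p = 0.0223) and its partner GABPB2 at −0.74 (adjusted p = 0.0176). Among 14 electron carriers and further subunits, 0 rose and 2 fell: GPD2, the mitochondrial glycerol-3-phosphate dehydrogenase (−0.70, 0.00422), and SQRDL, sulphide quinone reductase (−0.54, 0.00534). GPD2 was at −0.63 in T98 and −0.76 in U87 and passed in both, but SQRDL was at −1.10 in T98 (adjusted p = 0.00497) and 0.02 in U87 (0.943). The difference for SQRDL was −1.12 (adjusted p = 0.0541 with and 0.9999 without a lane term). Both lists stand beside 26.4% of all genes called in that fit.

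Neuronal markers also moved with the siRNA. In the lane-term fit of the mean, 2 of the 4 neuronal markers tested rose, SYP by 2.15 and SNAP25 by 1.89. Their 6-gene list summed to 171.0 to 442.6 in T98 control libraries and 908.6 to 1317.8 after LKB1 siRNA, and to 938.6 to 1127.5 and 2867.0 to 3051.9 in U87. RBFOX3 and STMN2, which define mature and young neurons, stayed at 0.0 to 7.6. Of the 6 glial markers tested, 2 were higher (NES and SLC1A3) and 1 lower (VIM) in that mean. In that lane-term fit, 26.4% of all genes passed (13.2% in each direction). Without a lane term, 1 neuronal and 0 glial markers passed for the mean, against 1.86% of all genes. NES was at 1.01 in T98 (lane-term adjusted p = 0.0180) and 0.15 in U87 (0.677), SLC1A3 at 0.88 (0.0194) and 0.40 (0.185), and VIM at −0.40 and −0.37, passing in neither line. The part of either in the subunit results was not tested. In bulk RNA, fewer cells of a type and less RNA per cell cannot be told apart.

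The second question was how the lines differ before knockdown. With control siRNA, 9 members were higher and 9 lower in T98 than in U87 without a lane term (against 37.7% of all genes in either direction, 18.3% higher and 19.5% lower). By complex, 3 genes were higher and 8 lower in T98 of 38 in complex I, 1 and 0 of 4 in II (SDHD), 2 and 0 of 9 in III, 0 and 0 of 11 in IV, and 3 and 1 of 19 in V. With the lane term the counts were 19 and 20 (66.4% of all genes, 32.9% higher and 33.6% lower). Without a lane term, leaving out either T98 control library or the lane 5 control library of U87 lowered the total of 18. Leaving out the lane 2 control library of T98 also lowered the number of all genes called. With each of the 8 libraries left out in turn, the members' median difference ran from −0.22 to 0.16. The groups did not overlap for 21 members that were higher in T98 and 23 that were lower, against 35.7% and 35.9% of all genes. The median difference over the 81 members was −0.05, beside −0.01 for all genes, and 37 of the 81 were above 0 (49.7% of all genes). Between the lane 2 libraries it was −0.27, and between lane 4 of T98 and lane 5 of U87 it was 0.13.

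SDHD (hg19 chr11:111957571-111966518) was at 3701 and 4048 in T98 control libraries and at 1968 and 1754 in U87 control libraries, and the LKB1 siRNA libraries gave 4129 and 4080 against 1637 and 1692. Every T98 library lay above every U87 library. It was 2.08-fold higher in T98 (log2 1.06, SE 0.16, adjusted p = 0.00248). ATP5L, the g subunit at the base of ATP synthase, was at 4722 and 4972 in T98 and 2759 and 2031 in U87 control libraries, a 2.05-fold difference (log2 1.03, SE 0.22, adjusted p = 0.0100). ATP5G3 was at 13504 and 16304 against 9454 and 6586 (log2 0.91, SE 0.25, adjusted p = 0.0230), whereas ATP5G1 and ATP5G2, which encode the same mature c subunit, did not pass in the control libraries. UQCRH (log2 0.83), NDUFA6 (0.85) and NDUFC2 (0.90) were also higher in T98, as were the uncertain UQCRHL (0.86), ATP5L2 (1.32) and NDUFC2-KCTD14 (1.13).

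NDUFV3 (hg19 chr21:44313378-44329773), an accessory subunit next to the NADH-binding site of complex I, was at 334 and 328 in T98 control libraries and 927 and 1015 in U87 control libraries. After LKB1 siRNA it was at 368 and 288 in T98 and 1107 and 1139 in U87. All 4 T98 libraries lay below all 4 U87 libraries. It was 2.92-fold lower in T98 (log2 −1.55, SE 0.22, adjusted p = 0.00182). NDUFB1 was at 530 and 583 in T98 and 1554 and 1157 in U87 control libraries (log2 −1.27, SE 0.24, adjusted p = 0.00573). The 2 genes that led the knockdown results were both lower in T98 than in U87 control cells, NDUFA8 by −0.97 (adjusted p = 0.0130) and NDUFA5 by −0.95 (adjusted p = 0.00862). The other members lower in T98 were ATP5I (−0.78) and 4 accessory subunits of complex I, at −0.90 to −0.69.

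The LKB1 siRNA libraries compare the lines by group means from samples outside the control means. Both comparisons take their spread from the same fit of all 8 libraries, so their calls are not independent. Between the LKB1 siRNA groups, 15 members were higher and 5 lower in T98 (42.4% of all genes in either direction, 21.5% higher and 20.9% lower). With the lane term 28 were higher and 12 lower (68.9% of all genes, 35.2% higher and 33.7% lower). The groups did not overlap for 28 higher and 15 lower members (36.9% and 35.8% of all genes), and 50 of the 81 were above 0 (50.7%). Of the 18 control calls, all 18 had the same sign and 14 passed in both, which is 77.8% of the control calls and 70% of the 20 LKB1 siRNA calls. The share of all genes that passed in both was not computed. The total of 20 dropped when the lane 2 LKB1 siRNA library of T98 or either LKB1 siRNA library of U87 was left out. Fewer of all genes passed too without the lane 2 LKB1 siRNA library of U87. With each of the 8 libraries left out in turn, without a lane term, the members' median ran from −0.01 to 0.34. Complex V had 6 higher calls and 0 lower, among them ATP5G1 (0.60, adjusted p = 0.0315), and complex I had 6 higher and 5 lower. NDUFV3 was again the lowest in T98 relative to U87 (−1.78, adjusted p = 0.000848). Leaving aside the readthrough NDUFC2-KCTD14 (1.56) and the copy ATP5L2 (1.48), ATP5L (1.33, 0.00308) and SDHD (1.3, 0.000885) were the highest.

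Members were also set beside their neighbours, the tested genes within 5 Mb on hg19. The neighbours' median difference in the control libraries had the same sign as the member's for 15 of the 18 called members and 60 of all 81, and as the gene's for 67.8% of all called genes and 61.7% of all genes tested. NDUFC2 and NDUFC2-KCTD14 share 1 window and count as 2 of the 15, and the medians of ATP5I (−0.03) and NDUFA13 (−0.06) were near 0. On chromosome 11, the medians were 1.02 over 50 neighbours of SDHD, 1.27 over 54 of NDUFC2 and 1.00 over 67 of ATP5L, beside the members' own 1.06, 0.90 and 1.03; the windows around SDHD and ATP5L share genes. On chromosome 14, 54 neighbours of NDUFB1 had a median of −1.19. NDUFV3 went the other way: its 57 neighbours on chromosome 21 had a median of 0.81 while the gene itself was at −1.55. NDUFA3 (−0.90, neighbours 0.23) and UQCRHL (0.86, neighbours −0.14) also had opposite signs; ATP5I, NDUFA13 and NDUFA3 are named here after their values were seen. NDUFA5, on chromosome 7, was at −0.95 with 25 neighbours at −0.14.

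**Figure D5:**
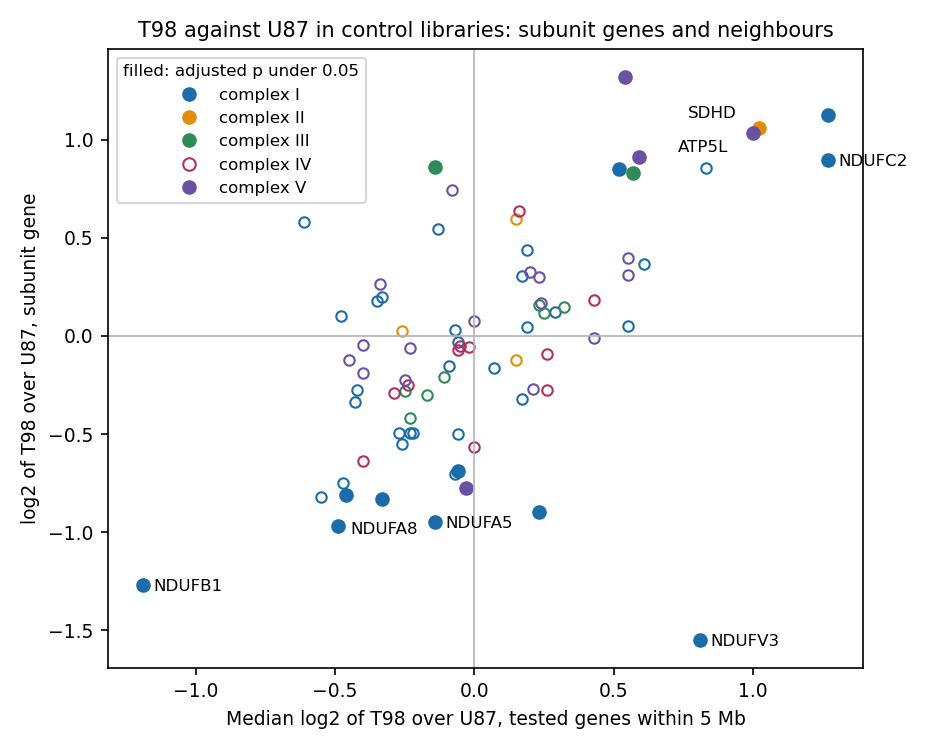
Difference between T98 and U87 in the control libraries (log2) for each tested subunit gene, against the median difference of the tested genes within 5 Mb of it; colours mark the complex and filled points passed at an adjusted p below 0.05 without a lane term. SDHD, ATP5L and NDUFC2 lie at the upper right, NDUFB1 at the lower left, and NDUFV3 at the lower right, with neighbours at 0.81.

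The other lists are given for the same contrast, control siRNA without a lane term, in which 37.7% of all genes passed (18.3% higher and 19.5% lower). Of 23 genes of the tricarboxylic acid cycle and pyruvate dehydrogenase, 7 were higher and 2 lower in T98, with IDH3B (log2 1.62, adjusted p = 0.000500) and DLAT (1.90, 0.00163) higher and DLST (−1.05, 0.00307) and PDK1 (−0.81, 0.0142) lower. Of 24 assembly factors of complex IV, 6 were higher and 1 lower, with SELRC1 (2.55) and PET117 (1.55) higher and COX16 (−1.05) lower. Of 14 assembly factors of complex I, 1 was higher, TMEM126B (1.12), and 1 lower, TMEM186 (−0.67). Of 21 regulators, 4 were higher and 1 lower. Glial markers were lower in T98 for 4 of the 6 tested, including NES (−5.49) and SLC1A3 (−1.66), and endothelial markers for 2 of 5, KDR and CDH5; their part in the subunit differences was not tested.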

How the data were processed

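The deposited table gives 1 signal value per RefSeq transcript and library, made by the authors. The submitters' processing notes name TopHat2 2.0.8b, edgeR and the build hg19 (GRCh37), without a read counter. The TruSeq V2 libraries carry no strand, per the labels' protocols, so overlapping genes cannot be told apart. The deposited signal equals edgeR pseudo-counts at a common dispersion of 0.06803, and inverting that adjustment returned whole reads (tolerance 0.05 read) for 99.76% to 100.0% of values per library.

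Genes with a value of at least 10 in at least 2 libraries were tested on log2(value + 1) by limma-trend in limma 3.58.1 under R 4.3.3, with 4 group means, 4 residual degrees of freedom, two-sided tests and Benjamini-Hochberg adjustment over all 14282 genes (threshold 0.05). A second fit added a lane term for each line, centred so that fold changes stay equal (2 residual degrees of freedom). The pairing comes from the lanes in the column names: lane differences correlated at 0.72 and 0.81 within a line and 0.12 to 0.18 between lines. edgeR 4.0.16 and DESeq2 1.42.0 were run on the recovered reads. The script was tested on simulated data. Alternatives covered the pseudocount, filter, scaling, lane term, tool and leaving out each library.

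Named genes were STK11, members past the threshold in either fit (at most 4 in each direction per complex), the largest rise and fall and the highest and lowest level per complex, listed isoforms, and up to 2 genes in each direction per other list; genes named for a promoter match or as exceptions among neighbours were chosen after their values were seen. The members and lists were chosen with earlier results of these data known. Coordinates of genes are hg19 from the deposited table, counted from 1; promoter windows are RefSeq GRCh38.p14, and no coordinate was converted.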

Additional observations from a re-analysis of the deposited data

How the results depend on the processing

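With the lane term as a replicate block, members called went from 0 to 4 in T98, 0 to 4 in U87, 2 to 9 for the mean effect, 18 to 39 between the control groups and 20 to 40 between the LKB1 siRNA groups; genes called went from 4 to 2258, 8 to 1599, 265 to 3765, 5386 to 9487 and 6049 to 9837, and from 0 to 68 for the difference of effects. With the replicate block, edgeR called 6, 4, 10, 38 and 41 members (2626, 1999, 3853, 9508 and 9846 genes, and 148 for the difference), and DESeq2 8, 4, 12, 36 and 38 (2540, 1914, 3577 and 8689 genes in the first 4 comparisons, and 415 for the difference). Without it, DESeq2 called 2 members in T98 (350 genes), 1 in U87 (491), 1033 genes for the mean and 12 for the difference, and edgeR called 1 member for the mean and 0 genes in U87. Without a filter, 13, 30, 148 and 23 genes passed for T98, U87, the mean and the difference, with 1 member for the mean; a minimum of 50 gave 14 genes in U87, and either rescaling gave 0. The causes were not tested.

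Leaving out 1 library, over both fits, gave 0 to 29 members (0 to 3892 genes) in T98, 0 to 5 (0 to 2818) in U87, 0 to 27 (0 to 5067) for the mean, 5 to 47 (3158 to 10247) between the control groups, 9 to 53 (3844 to 10477) between the LKB1 siRNA groups and 0 to 994 genes for the difference. The T98 maximum of 29 came with a lane 4 library left out, so that lane 2 alone set the effect. The members' median ran from −0.23 to 0.19 in U87, 0 to 0.21 for the mean and −0.01 to 0.4 between the LKB1 siRNA groups. Between those groups, SDHB ran from −0.01 to 0.70 and NDUFB9 from −0.08 to 0.81, below 0 only without the lane 2 library of T98 and the lane 5 library of U87, respectively. Replicate numbers follow sample order and carry no pairing. A library left alone in its group is assumed to vary like the other groups; with the lane term, the remaining spread then comes from the other line.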
